A study of Rattus norvegicus with 12 samples.

Results

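The insulin-like growth factor (IGF) family was examined in cultured neural stem cells (NSCs) of rat brain and spinal cord. The members were the 9 genes Igf1, Igf2, Igf1r, Igfbp2, Igfbp3, Igfbp4, Igfbp5, Igfbp6 and Igfbp7, taken as every probe set whose platform annotation gave exactly 1 of these symbols. They made up 21 probe sets, against 14217 genes with a probe set of 1 symbol in the whole series. RNA was measured on 12 Affymetrix Rat230_2 arrays, where each probe set reads the end of a transcript with several short oligonucleotides. The groups were differentiated spinal cord NSCs (titled SNSCfenhua), proliferative spinal cord NSCs (SNSC), differentiated brain NSCs (BNSCfenhua) and proliferative brain NSCs (BNSC), with 3 arrays each. All cells came from Sprague Dawley rats at postnatal day 3 to 5, with no genetic change or agent named in the labels, and the sources used here do not give how, or for how long, the cells were differentiated. The labels do not say whether the 3 arrays within each group are separate cultures or animals, and p-values here cover only the spread among arrays, which may be technical.

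IGF1 and IGF2 are secreted growth factors related to insulin, and they act mainly through the receptor tyrosine kinase IGF1R. In the extracellular space they are held by binding proteins, which carry them, protect them from breakdown and can either block or aid their access to the receptor. In the nervous system IGF signalling is known for its part in the growth and survival of neural progenitors, neurons and oligodendrocytes, and Igf2 is an imprinted gene that is made strongly in the fetus and, after birth, in meninges and choroid plexus.

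Values are log2 signals as deposited, and a difference of 1 is 2-fold. Array medians ran from 6.88 to 7.23. Testing required a signal over the array's 40th percentile (5.91 to 6.41) on 3 or more of the 12 arrays, and a group is called dim for a gene where all 3 of its arrays lay under that level. A gene is said to rise, fall or differ where limma's p-value, adjusted by Benjamini-Hochberg over 20834 tested probe sets, was under 0.05. The probe set with the highest mean stood for its gene. Of the 21 member probe sets 18 were tested, and the other 3, all of Igf2, were dim in all 4 groups. Each gene had a tested probe set, but Igfbp6, dim in brain in both states, owed its place among the tested genes to spinal cord arrays. Spinal cord proliferative replicate 1 stood apart from the other 2 arrays of its group in several members, and where its omission changes a call or moves a value much, that value is also given without it. The 3′ minus 5′ signal of Actb, a sign of RNA quality, was 0.99 to 1.01 on the differentiated spinal cord arrays and 0.69 to 0.99 on the proliferative ones, against 0.73 to 0.81 on differentiated and 0.77 to 0.84 on proliferative brain arrays. It thus separated the tissues in the differentiated state without overlap, and its part in the results was not tested.

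The markers of neural stem cells were present in every group: the 6 measured (Nes, Sox2, Vim, Fabp7, Prom1 and Pax6) were dim in no group. Their summed linear signal was 39943 to 42062 on differentiated and 42375 to 44181 on proliferative spinal cord arrays. On brain arrays it was 61702 to 72482 in the differentiated and 50610 to 60191 in the proliferative state. Of the 6, 5 were lower in spinal cord than in brain in the differentiated and 4 in the proliferative state, with 0 higher. With differentiation 1 rose and 3 fell in spinal cord, and 3 rose and 1 fell in brain. Markers of fibroblasts and meninges were also present in the spinal cord cultures. The summed linear signal of the 11 fibroblast and meningeal markers was 123790 to 141290 on differentiated and 30050 to 63179 on proliferative spinal cord arrays, against 4574 to 5058 on differentiated and 3670 to 6214 on proliferative brain arrays. Of these 11 genes, 10 were higher in spinal cord than in brain in each state and 1 was lower in the differentiated state, while 8 rose and 0 fell with differentiation in spinal cord. In RNA from whole cultures, fewer cells of a type and less RNA per cell cannot be told apart. The summed signal of 5 oligodendrocyte markers was 34534 to 40736 on differentiated and 35339 to 37845 on proliferative spinal cord arrays, against 37000 to 45952 on differentiated and 2828 to 5107 on proliferative brain arrays. All 5 rose in brain differentiation, all 5 were higher in spinal cord than in brain in the proliferative state, and for all 5 the difference of responses was below 0, directions that Igf2 and Igfbp5 shared. In the differentiated state Igf2 and Igfbp5 were higher in spinal cord, while 1 of the 5 was higher and 1 lower. Of 9 tested microglial and macrophage markers, 5 rose and 1 fell in brain differentiation. Spinal cord was higher in 9 in the proliferative and 5 in the differentiated state, with 0 lower. The difference of responses was below 0 for 5 and above 0 for 0 of these markers. Of 6 astrocyte markers, 5 rose and 1 fell with differentiation in spinal cord, and 5 rose and 0 fell in brain. Igfbp2 and Igfbp7 also rose in each tissue. In spinal cord against brain, 1 marker was higher and 5 lower in the differentiated state, and 2 higher and 3 lower in the proliferative state. Igfbp7 was higher in spinal cord in each state, and Igfbp2 was lower in the proliferative state. The difference of responses was above 0 for 1 and below 0 for 2 astrocyte markers, and above 0 for Igfbp2. The astrocyte sum was 41086 to 51022 on differentiated and 13941 to 24568 on proliferative spinal cord arrays, against 74496 to 79993 on differentiated and 25165 to 30965 on proliferative brain arrays. The summed signal of 5 choroid plexus markers was 1217 to 1304 on differentiated and 334 to 478 on proliferative spinal cord arrays. On brain arrays it was 433 to 605 in the differentiated and 339 to 1364 in the proliferative state. Of 3 tested, 1 was higher and 1 lower in spinal cord in the differentiated state, and 0 were called in the proliferative state. The part of all these markers in the results below was not tested.

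**Figure D1:**
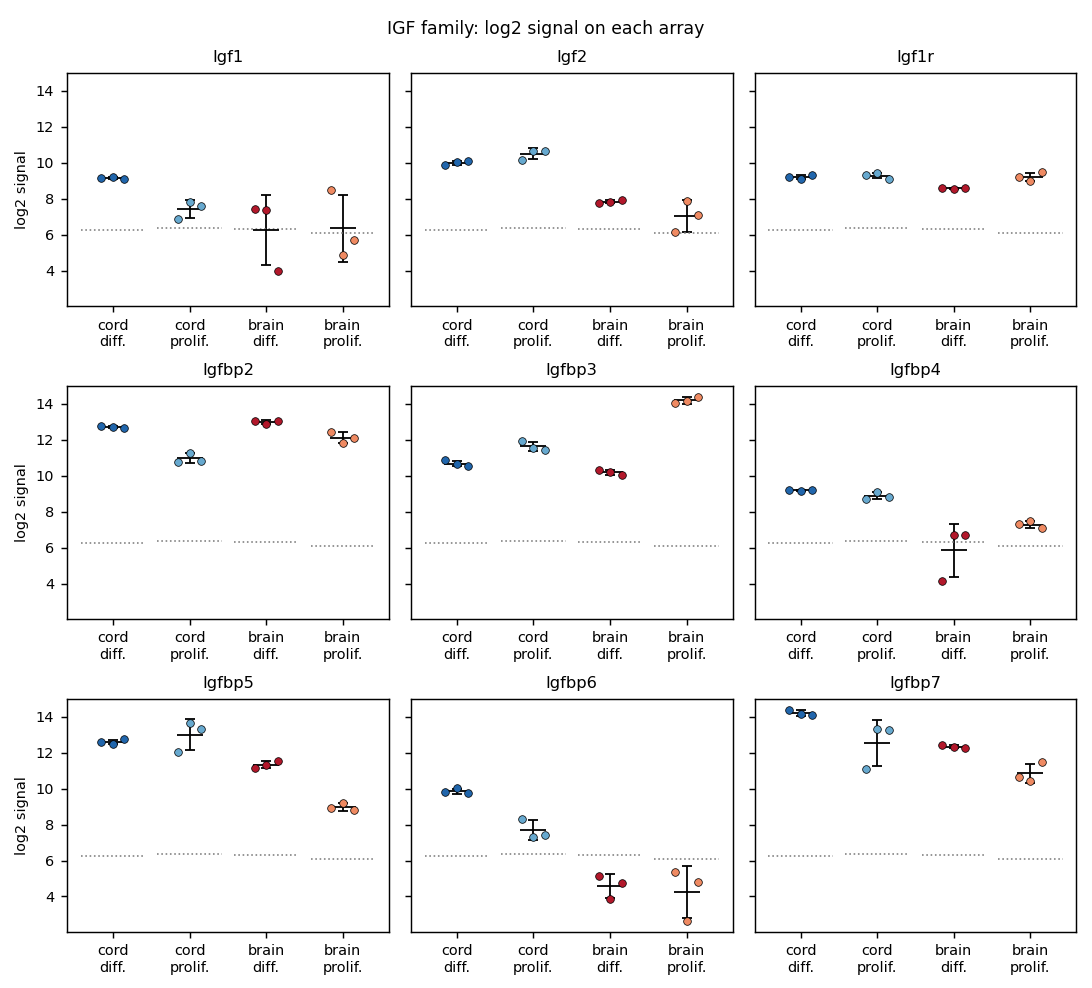
Log2 signal (vertical axis) of the 9 member genes on each array, with the groups along the horizontal axis. Points are arrays, bars are the mean and SD (n = 3), and dotted lines are the mean 40th percentile of the group's arrays. Igfbp3 stands highest on the 3 proliferative brain arrays, while Igf2, Igfbp4, Igfbp5 and Igfbp6 stand higher on spinal cord arrays than on brain arrays.

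Across the family, the tissues differed in most members and differentiation moved the binding proteins in different directions. With differentiation in spinal cord, 3 of 9 members rose (Igfbp2, Igfbp6 and Igfbp7) and 1 fell (Igfbp3). Over all 11218 genes tested in that comparison 43.5% were called, with 20.9% of all genes higher and 22.6% lower. With differentiation in brain, 4 rose (Igf2, Igfbp2, Igfbp5 and Igfbp7) and 3 fell (Igf1r, Igfbp3 and Igfbp4), where 52.5% of all genes were called, 24.1% as higher and 28.5% as lower. The median difference of the members was 0.30 in spinal cord and 0.32 in brain, beside -0.04 and -0.06 over all genes tested.

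Between the tissues in the differentiated state, 8 of 9 members were higher in spinal cord, 0 were lower and Igfbp2 was not called. In that comparison 44.7% of all genes were called, 22.3% as higher in spinal cord and 22.4% as lower. In the proliferative state 5 members were higher in spinal cord (Igf2, Igfbp4, Igfbp5, Igfbp6 and Igfbp7) and 2 were lower (Igfbp2 and Igfbp3), with 43.9% of all genes called, 21.2% as higher and 22.8% as lower. The median spinal cord minus brain difference of the members was 1.88 in the differentiated and 1.60 in the proliferative state, beside -0.0038 and -0.04 over all genes tested. Because Igfbp6 was tested on the strength of spinal cord arrays alone, its direction in these 2 counts was set beforehand. The differentiation contrast of a tissue and the tissue contrast of a state share arrays, so their values are set side by side and not compared as separate evidence. The response to differentiation itself differed between spinal cord and brain for 5 members, with 3 differences above 0 (Igf1r, Igfbp2 and Igfbp3) and 2 below (Igf2 and Igfbp5), where 44.9% of all genes were called, 23.7% as higher and 21.2% as lower. Probe sets of a gene did not always share this call: the other 2 of Igf1 and the second of Igfbp6 were called, and the second of Igf1r was not (0.27, adjusted p = 0.34). Of those called, 1 of Igf1 and that of Igfbp6 were each dim in 2 groups.

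**Figure D2:**
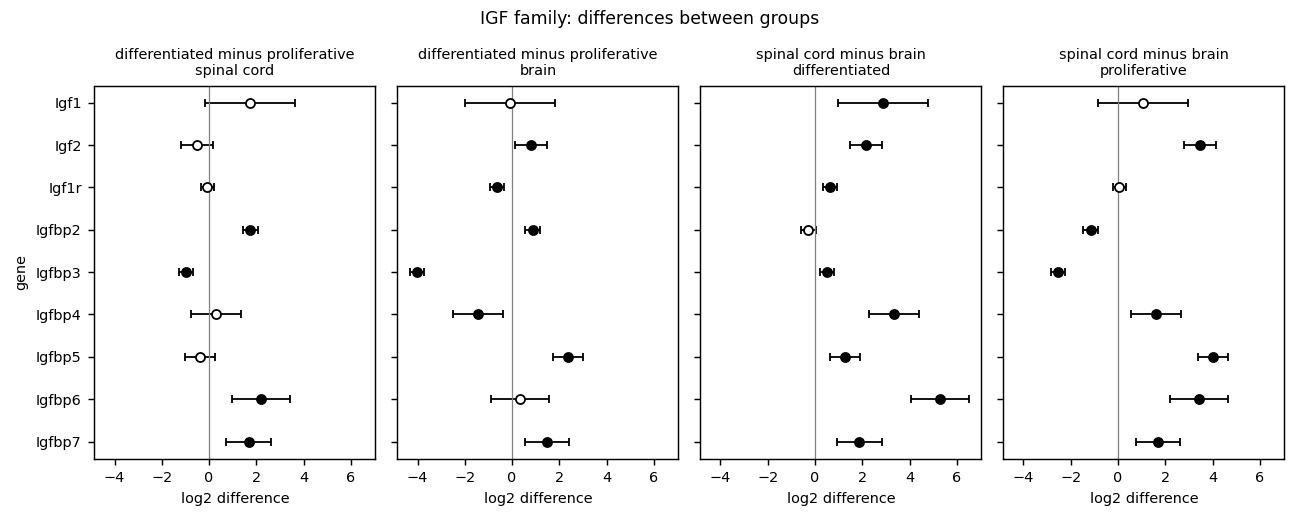
Log2 difference (horizontal axis) of each member gene (vertical axis) in the 4 comparisons between groups. Points are limma estimates with 95% confidence intervals, filled where the adjusted p was under 0.05. The interval of Igfbp3 in brain differentiation, -4.31 to -3.72, lies furthest below 0, and in the differentiated state 8 of 9 members lie above 0.

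Among the ligands, Igf2 was the one with the clearer tissue difference. The Igf2 signal was 9.89, 10.03 and 10.11 on differentiated spinal cord arrays and 10.18, 10.69 and 10.69 on proliferative ones. On brain arrays it was 7.77, 7.81 and 7.96 in the differentiated and 6.15, 7.89 and 7.11 in the proliferative state. Every spinal cord array lay above every brain array. In the proliferative state spinal cord exceeded brain by 3.47 ± 0.31 (SE), which is 11.1-fold (adjusted p = 1.6e-06), and in the differentiated state by 2.16 ± 0.31, or 4.48-fold (adjusted p = 7.6e-05).

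The state of the culture moved Igf2 less. In differentiated spinal cord cultures it averaged 10.01 ± 0.11 (SD, n = 3), against 10.52 ± 0.29 in proliferative ones. The arrays of these states did not overlap, yet the -0.51 change missed the threshold (adjusted p = 0.22) and passed it in a fit of the spinal cord arrays alone (adjusted p = 0.032). Without spinal cord proliferative replicate 1, the lowest of its group, the change was -0.68 and still not called (adjusted p = 0.13). In brain, Igf2 averaged 7.85 ± 0.10 in differentiated and 7.05 ± 0.87 in proliferative cultures, a rise of 0.80 that passed narrowly (adjusted p = 0.049). That call was lost in 16 of 21 alternative settings, among them the one without brain proliferative replicate 1, in which the difference was 0.35 (adjusted p = 0.23). The adjusted p over these settings ran from 0.0015 to 0.23. The responses of the tissues differed by -1.30 ± 0.44 (adjusted p = 0.029), and by -0.85 without brain proliferative replicate 1.

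Igf1 was measured by 3 probe sets, and the representative one scattered widely in brain. Its signal was 9.14, 9.22 and 9.09 on differentiated spinal cord arrays and 6.86, 7.82 and 7.59 on proliferative ones. On brain arrays it was 7.41, 7.38 and 4.01 in the differentiated and 8.48, 4.90 and 5.73 in the proliferative state. The differentiated spinal cord arrays thus lay above all 9 others, and 3 of the 6 brain values lay under their array's 40th percentile. Differentiated spinal cord cultures exceeded differentiated brain cultures by 2.88 ± 0.88 (SE, adjusted p = 0.018), and no fold is given because the brain mean, 6.27, lay under the mean 40th percentile of its arrays, 6.30. With values under the 40th percentile set to it, the difference was 2.10 (adjusted p = 0.0043). Without brain differentiated replicate 3, the low array, the difference was 1.76 and was not called (adjusted p = 0.084). The other 2 probe sets called it as well (adjusted p = 0.00084 and 0.0026). For the dimmer of them, with all 3 differentiated brain arrays under that level, the difference was at least 1.59-fold. That probe set was also dim in proliferative spinal cord and lay under that level on 2 of 3 proliferative brain arrays. Its testing thus rested on the differentiated spinal cord arrays, and its direction was favoured beforehand.

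For Igf1 in spinal cord differentiation, the representative probe set gave 1.73 ± 0.88, short of the threshold (adjusted p = 0.14). A second probe set gave 8.61, 8.69 and 8.75 on differentiated arrays, against 5.76, 6.54 and 7.01 on proliferative ones, and rose by 2.25 ± 0.51, or 4.75-fold (adjusted p = 0.0033). The remaining probe set rose by 1.67 (adjusted p = 0.037), at least 1.53-fold because its proliferative group was dim. This probe set was tested on the strength of the differentiated spinal cord arrays, so the direction of its rise was favoured beforehand. A fit of the spinal cord arrays alone called the representative probe set too (adjusted p = 0.00071). In brain the change of the representative probe set was -0.10 ± 0.88 (SE), an error too wide to show any but a large change. The responses of the tissues differed by 1.83 in the representative probe set, which was not called (adjusted p = 0.27), and by 2.98 in the second (adjusted p = 0.0050).

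Igf1 is made by microglia among other cells, so the microglial markers are given beside it. Their summed linear signal over 13 genes was 4499 to 4676 on differentiated and 4791 to 8163 on proliferative spinal cord arrays, against 1881 to 2042 on differentiated and 795 to 971 on proliferative brain arrays. Cx3cr1, P2ry12, Itgam and Trem2 were dim in all 4 groups. Brain proliferative replicate 1, the brain array with the highest Igf1 signal, had a microglial sum of 795, the lowest of its group. In proliferative brain 8 of the 13 markers were dim, so the order of the sums within that group is not reliable. Of the 9 tested microglial markers, 5 were higher in spinal cord than in brain in the differentiated state and 9 in the proliferative state, while in spinal cord differentiation 0 rose and 3 fell. The part of these markers in the Igf1 differences was not tested.

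Igf1r, the receptor through which both ligands act, changed little. Its signal was 9.22, 9.12 and 9.32 on differentiated and 9.32, 9.42 and 9.13 on proliferative spinal cord arrays. On brain arrays it was 8.62, 8.55 and 8.59 in the differentiated and 9.22, 9.02 and 9.46 in the proliferative state. The differentiated brain arrays were the low ones, below all 9 others. Igf1r fell in brain differentiation by 0.65 on the log2 scale, or 1.57-fold (adjusted p = 0.0012), and in the differentiated state spinal cord exceeded brain by 0.63, or 1.55-fold (adjusted p = 0.0016). In spinal cord differentiation the change was -0.07, with a 95% interval of -0.35 to 0.22, and the responses of the tissues differed by 0.58 (adjusted p = 0.024). The second Igf1r probe set also put differentiated spinal cord above differentiated brain, by 0.59 (adjusted p = 0.0068), but gave -0.14 for brain differentiation, which was not called (adjusted p = 0.50).

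Igfbp3, which encodes the main carrier of IGFs in blood, showed the largest change with differentiation among the probe sets that stand for the members. On differentiated spinal cord arrays its signal was 10.85, 10.63 and 10.54, against 11.92, 11.56 and 11.43 on proliferative ones. On differentiated brain arrays it was 10.31, 10.19 and 10.04, against 14.02, 14.17 and 14.40 on proliferative ones. The proliferative brain arrays stood far above the rest and the groups of each pair did not overlap. Igfbp3 fell 16.2-fold in brain differentiation (log2 difference -4.02 ± 0.14 SE, adjusted p = 2.2e-10) and 1.95-fold in spinal cord differentiation (-0.96 ± 0.14, adjusted p = 8.7e-05).

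The fall of Igfbp3 was smaller in spinal cord, with a difference of responses of 3.05 ± 0.19 (adjusted p = 7.6e-08). In the proliferative state Igfbp3 was 5.88-fold lower in spinal cord than in brain (log2 difference -2.56, adjusted p = 1.6e-08). In the differentiated state it was 1.41-fold higher in spinal cord (0.50 ± 0.14, adjusted p = 0.010), a call lost without spinal cord differentiated replicate 1 (0.41, adjusted p = 0.052). The second probe set of Igfbp3 gave a 24.2-fold fall in brain and a 2.19-fold fall in spinal cord. Igfbp1, the gene next to Igfbp3 on the chromosome, was dim in all 4 groups.

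Igfbp2 and Igfbp5, whose proteins are the binding proteins best known from the developing brain, lie next to each other on the chromosome, with no other annotated gene starting between them. They did not share a pattern. The promoter windows of these 2 genes and of Igfbp3 and Igf2 are shown because these are 4 of the 5 genes whose responses differed between the tissues. Each is the 250 bases before an annotated transcript start from RefSeq (GRCr8), read 5′ to 3′ on the gene's strand. Capitals mark matches, on either strand, to TATAAA (the TATA box), TATATA (a form of it), GGGCGG (letters bound by Sp1 factors), TGANTCA (letters bound by AP-1) or CCAAT (letters bound by NF-Y). The arrays themselves carry no coordinates of this build.
Igfbp2 (chr9:81864561-81864810, plus strand): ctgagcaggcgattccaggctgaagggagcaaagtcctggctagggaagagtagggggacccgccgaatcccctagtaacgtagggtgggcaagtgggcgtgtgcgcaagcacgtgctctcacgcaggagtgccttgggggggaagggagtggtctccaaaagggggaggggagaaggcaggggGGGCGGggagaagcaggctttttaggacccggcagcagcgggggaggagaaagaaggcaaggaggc
Igfbp5 (chr9:81914188-81914437, minus strand): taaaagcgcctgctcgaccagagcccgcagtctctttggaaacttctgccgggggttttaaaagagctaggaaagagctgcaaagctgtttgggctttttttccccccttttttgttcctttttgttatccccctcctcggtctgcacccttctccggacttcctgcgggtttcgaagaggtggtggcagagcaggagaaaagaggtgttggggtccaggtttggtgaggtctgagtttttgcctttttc
Igfbp3 (chr14:86277945-86278194, minus strand): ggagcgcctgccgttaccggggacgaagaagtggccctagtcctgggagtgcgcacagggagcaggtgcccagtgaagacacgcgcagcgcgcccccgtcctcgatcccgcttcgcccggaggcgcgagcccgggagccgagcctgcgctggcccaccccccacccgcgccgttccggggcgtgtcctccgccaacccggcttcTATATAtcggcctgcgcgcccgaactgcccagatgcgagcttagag
Igf2, the downstream of 2 annotated starts (chr1:207250476-207250725, minus strand): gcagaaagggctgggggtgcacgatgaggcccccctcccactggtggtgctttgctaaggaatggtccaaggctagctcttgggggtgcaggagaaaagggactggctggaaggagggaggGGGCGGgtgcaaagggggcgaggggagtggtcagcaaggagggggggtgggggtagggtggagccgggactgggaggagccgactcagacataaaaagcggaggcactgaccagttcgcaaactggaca

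The Igfbp3 window holds TATATA, beginning 46 bases before the start, which 5.4% of 33469 rat promoter windows of this length hold. The Igfbp2 window holds GGGCGG, beginning 66 bases before the start, and that of Igf2 holds the same letters 129 bases before it, as do 30.5% of all windows. The Igfbp5 window holds none of the 5 motifs, nor does that of the other annotated Igf2 start, which is not shown. The Igf1r window, also not shown, holds GGGCGG beginning 184 bases before the start. TATAAA occurs in 12.9% of windows, CCAAT in 34.0% and TGANTCA in 6.3%, and none of the 4 windows shown has them. G and C make up 51.6% of the Igfbp5 window, against 71.6% of that of Igfbp3 and 63.6% of that of Igf2. A match is a description of these letters only.

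The Igfbp2 signal was 12.79, 12.70 and 12.64 on differentiated spinal cord arrays, against 10.76, 11.29 and 10.84 on proliferative ones. On differentiated brain arrays it was 13.07, 12.85 and 13.06, against 12.44, 11.82 and 12.10 on proliferative ones. In each tissue the differentiated arrays were the higher ones, without overlap. Igfbp2 rose 3.36-fold in spinal cord differentiation (1.75 ± 0.15 SE, adjusted p = 1.2e-06) and 1.83-fold in brain differentiation (0.87 ± 0.15, adjusted p = 4e-04). The rise was greater in spinal cord by 0.88 ± 0.22 (adjusted p = 0.0054). Proliferative spinal cord cultures had 2.23-fold less Igfbp2 signal than proliferative brain cultures (-1.16, adjusted p = 5.4e-05), and in the differentiated state the tissues differed by -0.28 (95% interval -0.61 to 0.05), which was not called (adjusted p = 0.16). The arrays of that pair did not overlap, and a fit of these 2 groups alone called it (adjusted p = 0.015).

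The Igfbp5 signal was 12.59, 12.48 and 12.73 on differentiated spinal cord arrays and 12.03, 13.66 and 13.31 on proliferative ones. On differentiated brain arrays it was 11.13, 11.31 and 11.53, against 8.93, 9.20 and 8.80 on proliferative ones. The proliferative brain arrays were the low ones, and in spinal cord the states overlapped. Igfbp5 rose 5.10-fold in brain differentiation (2.35 ± 0.30 SE, adjusted p = 2.4e-05). In spinal cord differentiation the change was -0.40 and not called (adjusted p = 0.31). Without spinal cord proliferative replicate 1 it was a fall, with a log2 difference of -0.88 (adjusted p = 0.00034).

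The responses of Igfbp5 differed between the tissues by -2.75 ± 0.42 (adjusted p = 0.00016), and by -3.23 without that array. Spinal cord exceeded brain 16.3-fold in the proliferative state (4.02 ± 0.30, adjusted p = 2.6e-07, and 4.51 without that array) and 2.42-fold in the differentiated state (1.28 ± 0.30, adjusted p = 0.0033). All 5 probe sets of Igfbp5 were called as higher in spinal cord in each state and as higher in differentiated than in proliferative brain cultures. For 1 of them both brain groups were dim, so its brain change lies under the level of dim signals and is not read. That probe set was tested on the strength of spinal cord arrays, so its direction between the tissues was set beforehand. On spinal cord proliferative replicate 1 the fibroblast and meningeal marker sum was 30050, against 63179 and 53753 on replicates 2 and 3 of the group. The microglial sum on the same array was 8163, against 4791 and 5329.

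**Figure D3:**
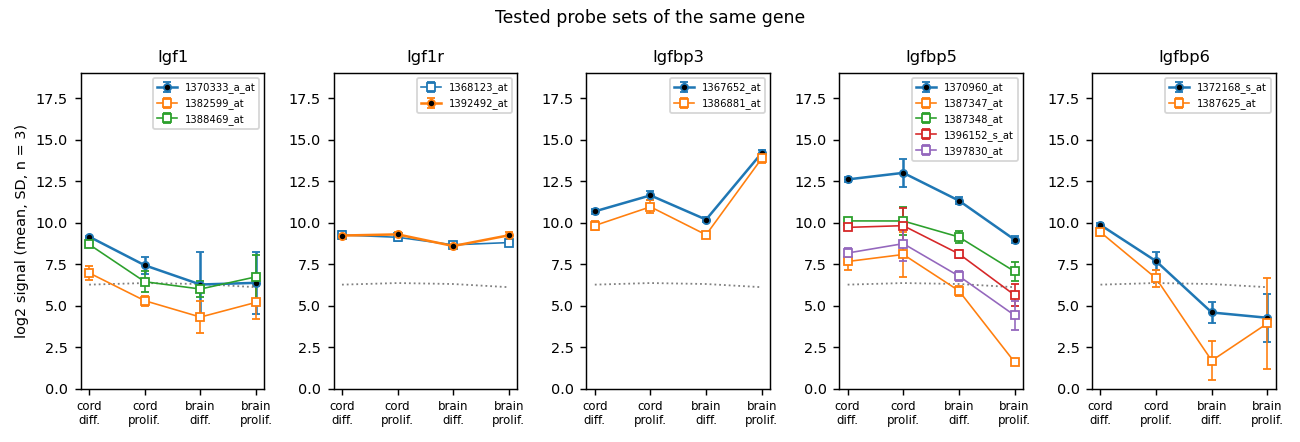
Mean log2 signal with SD (n = 3, vertical axis) of every tested probe set of the 5 members that have more than 1, by group (horizontal axis). Filled symbols mark the probe set that stands for the gene, and the dotted line is the mean 40th percentile of the group's arrays. The 5 probe sets of Igfbp5 and the 2 of Igfbp3 rise and fall together across the groups, while the Igf1 and Igfbp6 probe sets scatter in the brain groups.

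Igfbp4 and Igfbp6 belong with Igf2 in being higher in spinal cord cultures. Igfbp4, whose protein mostly restrains IGF action and is cut by the protease pappalysin, had signals of 9.19, 9.14 and 9.21 on differentiated and 8.71, 9.09 and 8.84 on proliferative spinal cord arrays. On brain arrays it was 4.16, 6.68 and 6.71 in the differentiated and 7.30, 7.47 and 7.07 in the proliferative state. Every spinal cord array lay above every brain array, and 1 differentiated brain array was far below the other 2. Spinal cord exceeded brain by 3.33 ± 0.49 (SE) in the differentiated state (adjusted p = 9.2e-05), or by 2.48 without the low array, brain differentiated replicate 1, and by 1.60 ± 0.49, or 3.03-fold, in the proliferative state (adjusted p = 0.019). In the proliferative state the call was lost without spinal cord proliferative replicate 2 (adjusted p = 0.061) or brain proliferative replicate 3 (adjusted p = 0.057).

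In brain differentiation Igfbp4 fell by 1.43 on the log2 scale (adjusted p = 0.028), with no fold given because the differentiated mean, 5.85, lay under the mean 40th percentile. With values under the 40th percentile set to it, the difference was -0.72 (adjusted p = 0.0037). Without brain differentiated replicate 1, the low array, the difference was -0.58 and still called (adjusted p = 0.018), and the call was lost without brain proliferative replicate 1 (adjusted p = 0.063) or 2 (adjusted p = 0.077). In spinal cord the change was 0.30 (95% interval -0.75 to 1.35) and not called, and the difference of responses, 1.73, was not called either (adjusted p = 0.061). The latter was called in 7 of 21 alternative settings, with limma's adjusted p from 0.0043 to 0.11.

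Igfbp6, whose protein prefers IGF2 over IGF1, was measured above the dim level in spinal cord cultures alone. Its signal was 9.80, 10.01 and 9.75 on differentiated spinal cord arrays, against 8.31, 7.30 and 7.41 on proliferative ones. On brain arrays it was 5.13, 3.87 and 4.75 in the differentiated and 5.35, 2.63 and 4.81 in the proliferative state, all under the 40th percentiles. The brain values have no reliable order. Igfbp6 rose 4.53-fold in spinal cord differentiation (2.18 ± 0.57 SE, adjusted p = 0.0076), by 2.50 on the log2 scale when spinal cord proliferative replicate 1 was left out, and its second probe set rose by 2.78 (adjusted p = 0.045). Against the dim brain groups it was at least 11.8-fold higher in differentiated and at least 2.96-fold higher in proliferative spinal cord cultures. The second probe set gave at least 8.70-fold and at least 1.45-fold, and its difference in the proliferative state was not called (adjusted p = 0.053). These bounds are a description, since the gene was tested on the strength of the spinal cord arrays.

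Igfbp7 encodes a secreted protein of the vessel wall and connective tissue that binds IGFs weakly. On differentiated spinal cord arrays its signal was 14.38, 14.17 and 14.08, against 11.08, 13.30 and 13.23 on proliferative ones. On differentiated brain arrays it was 12.43, 12.29 and 12.27, against 10.65, 10.44 and 11.46 on proliferative ones. Differentiated arrays lay above proliferative ones in each tissue, and spinal cord proliferative replicate 1 lay among the proliferative brain arrays. Igfbp7 rose 3.18-fold in spinal cord differentiation (1.67 ± 0.44 SE, adjusted p = 0.0081) and 2.79-fold in brain differentiation (1.48 ± 0.44, adjusted p = 0.014). The difference of the responses was 0.19, with a 95% interval of -1.15 to 1.53. In brain the call was lost without brain proliferative replicate 2 (1.27, adjusted p = 0.056).

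Without spinal cord proliferative replicate 1 the Igfbp7 rise in spinal cord was 0.94 (adjusted p = 0.0034). The difference of responses then changed sign, to -0.54, and was still not called. Spinal cord exceeded brain in Igfbp7 by 3.68-fold in the differentiated (1.88, adjusted p = 0.0036) and 3.22-fold in the proliferative state (1.69, adjusted p = 0.0082), and by 2.42 on the log2 scale in the proliferative state without that array. Endothelial cells are a known source of Igfbp7. Of the 8 endothelial markers measured, 8 were dim in differentiated and 6 in proliferative spinal cord cultures, and 7 in differentiated and 6 in proliferative brain cultures. Pecam1, Emcn, Cldn5, Vwf, Tie1 and Tek were dim in all 4 groups.

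By the probe sets that stand for the genes, the order of the 4 groups differed from gene to gene. For Igfbp3 the order was proliferative brain, proliferative spinal cord, differentiated spinal cord and differentiated brain, with neighbours differing past the threshold in each comparison that was tested. For Igfbp2 it was differentiated brain, differentiated spinal cord, proliferative brain and proliferative spinal cord, and the first pair was not called, although its arrays did not overlap. For Igfbp5 it was proliferative spinal cord, differentiated spinal cord, differentiated brain and proliferative brain, and again the first pair did not differ. For Igf2 the order was the same as for Igfbp5, with the first pair not called. For Igfbp7 it was differentiated spinal cord, proliferative spinal cord, differentiated brain and proliferative brain. For Igfbp4 and Igf1 it was differentiated spinal cord, proliferative spinal cord, proliferative brain and differentiated brain. No pair of neighbours differed past the threshold for the representative probe set of Igf1, nor did the first pair of Igfbp4. The other 2 probe sets of Igf1 called the first pair (adjusted p = 0.0033 and 0.037). In the former of these, proliferative brain (6.73) averaged above proliferative spinal cord (6.44). For Igf1r it was proliferative spinal cord, proliferative brain, differentiated spinal cord and differentiated brain, and the first pair did not differ. For Igfbp6 differentiated spinal cord was followed by proliferative spinal cord and the dim brain groups. The middle pair of Igf1r, Igfbp2, Igfbp6 and Igfbp7 crosses tissue and state and was not tested.

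Other genes of the pathway were followed with a list of 44, of which 39 had a probe set and 32 were tested. Of these 32, 11 rose and 6 fell with differentiation in spinal cord, and 8 rose and 10 fell in brain. In the differentiated state 13 were higher and 4 lower in spinal cord than in brain, and in the proliferative state 13 were higher and 6 lower. The median differences were 0.12, -0.10, 0.23 and 0.09 in that order. As shares of 32, these counts stand beside the 43.5%, 52.5%, 44.7% and 43.9% called over all genes in the same comparisons, and nothing particular to the list is read from them. Igfals, which holds circulating IGF complexes together, was dim in all 4 groups, as was the binding protein protease Pappa2.

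Of the 6 listed imprinted and Igf2 mRNA-binding genes (Igf2bp1, Igf2bp2, Igf2bp3, H19, Plagl1 and Dlk1), 2 rose and 2 fell in spinal cord differentiation and 0 rose and 2 fell in brain. Of these 6, 4 were higher in spinal cord than in brain in the differentiated and 3 in the proliferative state, with 0 lower. Over all genes tested, 20.9% rose and 22.6% fell in spinal cord differentiation, and 24.1% rose and 28.5% fell in brain. Spinal cord was higher for 22.3% and lower for 22.4% of all genes in the differentiated state, and for 21.2% and 22.8% in the proliferative state. With 6 genes, nothing particular to the list is read from these counts. H19, a non-coding RNA of the Igf2 locus, had signals of 10.90, 10.67 and 10.62 on differentiated and 11.98, 12.49 and 12.86 on proliferative spinal cord arrays. On brain arrays it was 8.93, 8.99 and 9.19 in the differentiated and 7.43, 10.16 and 7.42 in the proliferative state. As for Igf2, every spinal cord array lay above every brain array, and the highest proliferative brain array was replicate 2. H19 was 17.2-fold higher in spinal cord than in brain in the proliferative state (4.11 ± 0.53 SE, adjusted p = 4.1e-05). It was 3.22-fold higher in the differentiated state (1.69, adjusted p = 0.019). In spinal cord differentiation H19 fell 3.29-fold (adjusted p = 0.018).

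Grb10, an adaptor that restrains signalling from the insulin and IGF1 receptors, averaged 12.35 ± 0.09 in differentiated and 8.99 ± 0.61 in proliferative spinal cord cultures (SD, n = 3 each). In brain it averaged 3.43 ± 0.85 in differentiated cultures, which was dim, and 5.51 ± 1.06 in proliferative ones. Grb10 rose 10.2-fold in spinal cord differentiation (adjusted p = 0.00011), and it was at least 66.2-fold higher in differentiated spinal cord than in differentiated brain cultures (adjusted p = 9.5e-09). In brain differentiation its log2 difference was -2.07 (adjusted p = 0.0035). No fold is given and no fall is read, since the proliferative mean also lay under the level of dim signals. In the proliferative state it was also higher in spinal cord than in brain (adjusted p = 9.6e-05), with no fold for the same reason. Grb10 was tested on the strength of spinal cord arrays, so its direction between the tissues was favoured beforehand in each state. Plagl1, a zinc finger factor that in mouse acts on the Igf2 and H19 locus, averaged 10.39 ± 0.13 in differentiated and 7.41 ± 0.17 in proliferative spinal cord cultures, and in brain 6.41 ± 0.45 in differentiated and 6.59 ± 0.07 in proliferative cultures. It rose 7.85-fold in spinal cord differentiation (adjusted p = 1.6e-07) and was 15.7-fold higher in spinal cord than in brain in the differentiated state (adjusted p = 5.9e-09). Dlk1, a transmembrane protein related to Notch ligands, fell 4.40-fold in spinal cord differentiation (adjusted p = 0.00067). In spinal cord differentiation Grb10 and Plagl1 thus rose while H19 and Dlk1 fell. The difference of responses was called for Grb10 (adjusted p = 3.7e-05) but has no size, since both brain means lay under the level of dim signals. The responses of the tissues differed for Plagl1 by 3.16 (adjusted p = 2.3e-06) and for H19 by -2.42 (adjusted p = 0.019).

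**Figure D4:**
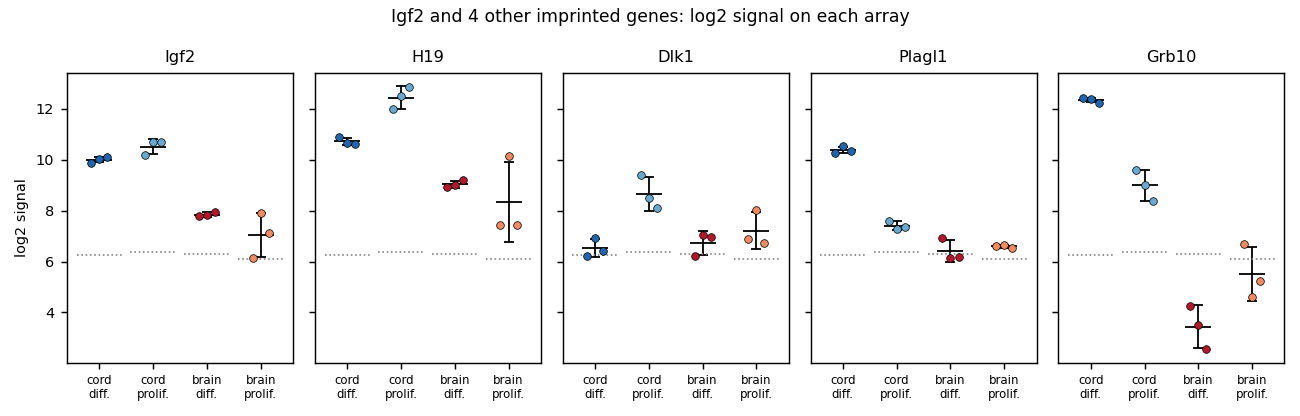
Log2 signal (vertical axis) of Igf2 and of H19, Dlk1, Plagl1 and Grb10, which are imprinted in mouse, on each array, by group (horizontal axis). Points are arrays, bars are the mean and SD (n = 3), and dotted lines are the mean 40th percentile of the group's arrays. Plagl1 and Grb10 are highest on differentiated spinal cord arrays, and H19 and Dlk1 average highest on proliferative ones.

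Among the rest of the list, Pik3r3, a regulatory subunit of PI3-kinase, rose 3.80-fold in brain differentiation (adjusted p = 1.4e-06), and Stc1, a secreted glycoprotein, fell 3.17-fold (adjusted p = 0.00013). Pik3r1, another regulatory subunit, was 3.67-fold higher in spinal cord than in brain in the proliferative state (adjusted p = 8.7e-07). Igfbpl1, a gene related to the binding proteins, was at least 3.10-fold lower in differentiated spinal cord than in differentiated brain cultures (adjusted p = 7.6e-06). Igf2r and Irs2 were named after their values were seen. Igf2r, which takes up and clears IGF2, was 2.85-fold higher in spinal cord than in brain in the differentiated state (adjusted p = 8.9e-06). Irs2, an adaptor of the insulin and IGF1 receptors, fell in differentiation in each tissue, by 2.18-fold in spinal cord (adjusted p = 3.2e-06) and 2.70-fold in brain (adjusted p = 3e-07).

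The genes whose pattern over the 12 arrays was most like that of a member were found by the root mean square difference of log2 signals after each gene's own mean was removed, a description with no test. For Igfbp3 they were Fosl1 (0.33), a transcription factor of the AP-1 family, Ap1s3 (0.39) and Tm4sf1 (0.42). For Igfbp2 they were Cfap300 (0.20), Chi3l1 (0.25), a secreted glycoprotein of reactive astrocytes, and Vcam1 (0.25), a cell adhesion molecule. For Igfbp7 they were Fzd1 (0.27), a Wnt receptor, Rab38 (0.31) and Ccl20 (0.31), a chemokine.

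For Igf2 the most alike were Lyz2 (0.39), the lysozyme of macrophages, Mal (0.43), a protein of myelin, and Mpeg1 (0.48), a macrophage protein. For Igfbp5 they were Ctsc (0.40), a lysosomal protease, Htra3 (0.41), a secreted serine protease, and Fxyd2 (0.47). For Igfbp4 they were Slc22a15 (0.46), Gpr153 (0.55) and Nkx6-1 (0.55), a homeodomain factor of the ventral spinal cord. Matches were looser for Igfbp6, with Six4 (0.65), Islr (0.71) and Thbs2 (0.73), and for Igf1, with Lsp1 (0.85), Llgl2 (0.86) and Npy1r (0.93). The group means of Igf1r spanned 0.70, too little for this comparison.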

How the data were processed

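Per the submitters' processing notes, MAS5 and affy (no versions given) made the values, and the deposited table holds log2 signals per probe set. From the values, each array's trimmed linear mean was 500.0. No count, coverage or scanner file was used. Of 31099 rows, 57 controls were left out, and 20834 of the other 31042 were tested. By the annotation, 20826 probe sets had 1 symbol, 436 had several and 9780 had none. All 9 members matched a current rat gene ID (GRCr8). A linear model with a mean per group was fitted to the 12 arrays with limma 3.58.1 (lmFit and trended eBayes, with 8 degrees of freedom left) under R 4.3.3, two-sided, and tested on simulated data. Figures used Python 3.11.15. A fold against a dim group is a lower bound, from the mean of that group's 40th percentiles (6.11 to 6.36).

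All members and their probe sets are named. Pathway genes are named by the 3 largest called differences per comparison, and like genes by the 3 smallest root mean square differences for members whose group means spanned at least 1. The members, lists and rules were chosen with earlier results of these data known. The number of arrays limits the precision. Alternatives were 2 other scalings, 2 other filters, 2 treatments of dim values, no trend, a fit of the compared groups alone, the mean of a gene's probe sets, a replicate block and leaving out each array. Same-numbered arrays of different groups had correlations of -0.12 to 0.05 between their deviations from group means, with 0 of 18 over 0.1, so the numbers were not taken as pairs.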

Additional observations from a re-analysis of the deposited data

Results flagged for a closer look

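For 5 of 9 members the differentiation response of spinal cord differed from that of brain in limma's test of the difference itself (adjusted p under 0.05), where 44.9% of all genes tested were called. With 9 genes, nothing particular to the family is read from this count. The response of Igfbp3 was -0.96 in spinal cord and -4.02 in brain, a difference of 3.05 (adjusted p = 7.6e-08). That of Igfbp5 was -0.40 in spinal cord and 2.35 in brain, a difference of -2.75 (adjusted p = 0.00016). That of Igfbp2 was 1.75 in spinal cord and 0.87 in brain, a difference of 0.88 (adjusted p = 0.0054). These 3 calls held in all 21 alternative settings.

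The other 2 were less firm. The response of Igf2 was -0.51 in spinal cord and 0.80 in brain, a difference of -1.30 (adjusted p = 0.029), with the call lost in 8 of 20 settings and an adjusted p of up to 0.066. The response of Igf1r was -0.07 in spinal cord and -0.65 in brain, a difference of 0.58 (adjusted p = 0.024), with the call lost in 5 of 21 settings and an adjusted p of up to 0.092.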

How the results depend on the processing

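Of 45 member differences 31 were called, and 23 of these kept their call and direction in every alternative run. The other 8 lost the call in at least 1 and reversed in none. Of 14 that were not called, 7 were called in at least 1 alternative. Among these, the differences of responses of Igfbp4 and Igfbp6 were each called in 7 of 21, and Igfbp6 was dim in brain in both states. The number of members called ran from 4 to 6 for spinal cord and 5 to 7 for brain differentiation, and 7 to 9 for differentiated and 6 to 7 for proliferative cultures of spinal cord against brain. For the difference of responses it was 3 to 7, and 3 to 6 when 1 array was left out, lowest without spinal cord proliferative replicate 3. Values that changed sign were not called in any setting. For brain differentiation, Igf1 was 0.18 with dim values at the 40th percentile and -0.83 to 1.03 leaving out 1 array, and Igfbp6 was -0.96 as the mean of its probe sets and -0.50 to 0.86 leaving out 1 array. For spinal cord differentiation, Igf1r was 0.0096 after median centring and 0.034 as the mean of its probe sets. For proliferative spinal cord against brain, Igf1r was -0.15 after median centring and -0.055 to 0.17 leaving out 1 array. The difference of responses of Igfbp7 was -0.54 to 0.57 leaving out 1 array. With a replicate block the number of members called was 4 in spinal cord and 7 in brain differentiation, 8 between differentiated and 7 between proliferative cultures, and 6 in the difference of responses, where Igfbp6 was called (1.86, adjusted p = 0.040), and it changed no other call of a member. The mean of probe sets gave no value for Igf2, which then failed the filter, and a fit of the compared groups alone has none for the difference of responses. Median centring moved the median of all probe sets by -0.15 for brain differentiation, -0.21 for proliferative spinal cord against brain and 0.23 for the difference of responses, and the share of higher calls to 38.2%, 31.7% and 61.3%, against 50.6%, 51.2% and 46.4% as deposited. MAS5 signals under the 40th percentile limit Igf1, Igfbp4 and Igfbp6 in brain.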
